A study of Mus musculus with 84 samples.

Results

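A set of 10 genes that stood far from control in cells carrying a hairpin against Ythdf3 were followed across every RNA library of the series. They are Akr1c21, Grm2, Rdh16, Ms4a4b, Kng2 and Hgd, which were higher, and Apoa2, Ccdc106, Plac8 and Chrm4, which were lower. These 10 of 50692 genes in the expression tables were chosen by their TPM values, for the size of the difference between shYthdf3 and the control hairpin shLuc, averaged over 4 days of reprogramming. That difference is therefore described here without a test, as is every other value of the members in the time course, and their tests use libraries that did not choose them. By this difference the 6 higher genes ranked 3, 10, 19, 20, 31 and 35 among 21303 genes tested, and the 4 lower ones 9, 21, 27 and 34 from the other end, so they are examples from either end of the ranking and not its complete head.

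The study measured RNA while mouse embryonic fibroblasts (MEFs) were turned into induced pluripotent stem (iPS) cells by the transcription factors Oct4, Sox2 and Klf4. Hairpins came in with the viruses and targeted luciferase (shLuc, the control), Ythdf2 (shYthdf2) or Ythdf3 (shYthdf3). Cells were taken at days 1, 3, 5 and 7, which made 24 libraries. The same 3 hairpins were put into MEFs, embryonic stem (ES) cells of a CBA/CaJ X C57BL/6J background and established iPS cells, which made 18 libraries without ongoing reprogramming. A further 24 libraries came from day 1 reprogramming cells with 1 of the 3 hairpins given actinomycin D, a blocker of transcription, or its solvent DMSO for 4 h or 8 h. Another 4 libraries compared a hairpin against the transcription factor Tead2 with its own shLuc, also at day 1. Every RNA group held 2 libraries, and the labels do not say whether these were separate cultures, so p-values measure the spread between libraries, which may be technical. The labels tell no separate hairpins for a target apart, so an effect of losing the target and an effect of the hairpin itself cannot be told apart. Chromatin accessibility (ATAC-seq) was given as 12 peak lists, 1 for each hairpin and day, and TEAD2 binding as 1 peak list at day 1.

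YTHDF2 and YTHDF3 are cytoplasmic readers of N6-methyladenosine, a methyl mark on messenger RNA, and are known to speed the shortening of poly(A) tails and the decay of marked transcripts. During reprogramming, fibroblast genes are shut off and the pluripotency network is switched on step by step, so both RNA synthesis and RNA decay set the level of a transcript. Most of the 10 genes are best known from tissues other than fibroblasts or pluripotent cells: Akr1c21, Rdh16, Kng2, Hgd and Apoa2 from liver and kidney, Grm2 and Chrm4 from neurons, Ms4a4b from T cells and Plac8 from placenta and myeloid cells.

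Levels are in TPM, a share of all transcripts in a library that is corrected for transcript length, and the read depth behind them is unknown. Time course libraries differed by replicate number: replicate 1 had 14789 to 16443 genes reaching 1 TPM, and replicate 2 had 13299 to 14885. Mitochondrial transcripts took 3.97 to 6.95% of TPM in replicate 1 and 7.58 to 14.93% in replicate 2. Ythdf3 itself lay between 19.04 and 41.1 TPM in the 8 shLuc libraries of the time course and between 5.21 and 20.64 TPM in the 8 shYthdf3 libraries. Its lowest level was in shYthdf3 day 1 replicate 2. Outside the time course Ythdf3 was 1.21 ± 0.19 lower in ES cells, 1.15 ± 0.19 in iPS cells and 0.96 ± 0.19 in MEFs on the log2(TPM + 1) scale (estimate ± standard error, limma, adjusted p = 0.00736, 0.00755 and 0.0462). In DMSO it was lower by 2.33 ± 0.56 and did not pass (limma, adjusted p = 0.0777). The DMSO libraries read 24.22 to 55.65 TPM in shLuc and 3.36 to 11.7 TPM in shYthdf3, without overlap. Replicate 2 was the higher one in both arms, and this fit did not include replicate number.

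Accessible chromatin was not found at all of these genes. A peak lay within 2 kb of the gene start of 5 members in at least 1 of the 12 lists, and within 10 kb for 8 members. Apoa2 and Chrm4 had one within 2 kb in all 12 lists, Grm2 in 8 (2 of shLuc, 3 of shYthdf2 and 3 of shYthdf3), Kng2 in 4 and Hgd in 2. For Apoa2 this held at the upstream of its 2 starts alone. From the other start, the nearest peak edge lay 2164 to 2231 bp away across the lists. The gene Tomm40l lies 0 bp from Apoa2, and Mdk lies 0 bp from Chrm4. Which gene the peaks at Apoa2 and Chrm4 belong to was not tested. The pair for Hgd, 1990 and 1964 bp downstream of the start, came from shYthdf3 at days 1 and 3, while a second site about 5 kb downstream was listed in 9 of the 12 lists, with every shLuc list among them. No list of any hairpin or day had a peak within 10 kb of Akr1c21 or Rdh16. For comparison, 39.7% of 27025 genes had no peak within 2 kb in any list and 21.9% none within 10 kb, and 1 list covered 46.6 to 53.7% of genes at 2 kb. With 1 list for each hairpin and day, presence and absence have no replicate.

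**Figure D1:**
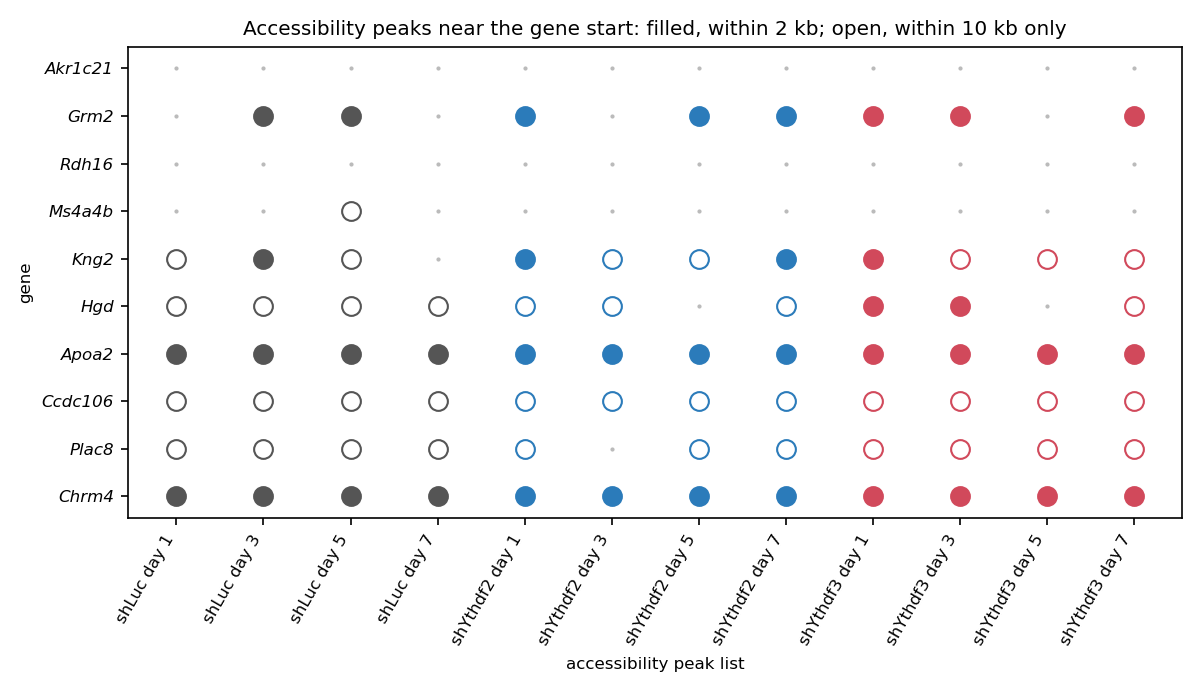
Each row is a gene and each column 1 of the 12 accessibility peak lists, by hairpin and day. A filled circle marks a peak within 2 kb of the gene start, an open circle a peak within 10 kb only, and a small grey dot none. Apoa2, by the upstream of its 2 starts alone, and Chrm4 are filled in all 12 lists, and Akr1c21 and Rdh16 are empty in all 12.

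The promoters of 4 members are shown to set Grm2 and Chrm4, where peaks were centred just before the start in 8 and 12 lists, beside Akr1c21 and Rdh16, with none within 10 kb. Sequences are from RefSeq, build GRCm38.p6, from 250 bases before to 50 bases after the start, on the gene's own strand, in lower case. Grm2 is from the minus strand at chr9:106656060-106656359, Chrm4 from the plus strand at chr2:91921939-91922238, Akr1c21 from the plus strand at chr13:4573825-4574124 and Rdh16 from the plus strand at chr10:127800903-127801202. Capitals mark the motifs searched, which were TATAAA on the gene's strand and, on either strand, CCAAT, also marked as its reverse complement, the TEAD motif GGAATG and the AP-1 motif TGANTCA. No pair of these marks overlaps in the windows shown.
Grm2: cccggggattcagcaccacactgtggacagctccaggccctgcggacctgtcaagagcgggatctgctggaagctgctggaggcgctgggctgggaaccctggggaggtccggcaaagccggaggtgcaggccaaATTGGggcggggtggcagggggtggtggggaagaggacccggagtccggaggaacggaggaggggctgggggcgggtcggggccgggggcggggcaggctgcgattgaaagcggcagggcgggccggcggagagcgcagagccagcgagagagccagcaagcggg
Chrm4: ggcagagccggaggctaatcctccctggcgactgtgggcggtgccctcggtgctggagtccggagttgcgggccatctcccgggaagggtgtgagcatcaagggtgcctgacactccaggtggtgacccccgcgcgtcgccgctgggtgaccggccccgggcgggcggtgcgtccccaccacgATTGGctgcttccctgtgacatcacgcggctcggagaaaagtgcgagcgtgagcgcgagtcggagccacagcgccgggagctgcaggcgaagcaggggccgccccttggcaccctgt
Akr1c21: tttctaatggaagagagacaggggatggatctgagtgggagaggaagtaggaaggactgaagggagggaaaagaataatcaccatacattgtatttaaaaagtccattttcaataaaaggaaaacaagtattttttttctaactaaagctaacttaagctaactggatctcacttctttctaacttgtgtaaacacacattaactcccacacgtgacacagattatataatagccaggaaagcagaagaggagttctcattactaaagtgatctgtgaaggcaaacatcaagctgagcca
Rdh16: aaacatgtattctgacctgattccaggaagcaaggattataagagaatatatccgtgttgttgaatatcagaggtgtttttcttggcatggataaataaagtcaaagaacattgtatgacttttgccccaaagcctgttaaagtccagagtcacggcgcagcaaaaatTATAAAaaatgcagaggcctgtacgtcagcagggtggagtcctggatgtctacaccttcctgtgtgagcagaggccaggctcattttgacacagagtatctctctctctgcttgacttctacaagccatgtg
The first pair was rich in CG dinucleotides, with 22 in Grm2 and 30 in Chrm4, against a median of 7 over 32851 promoters of the same length. Akr1c21 held 1 and Rdh16 held 4. Grm2 and Chrm4 each held 1 CCAAT, 115 and 67 bases before the start, a motif in 37.4% of all promoters. Rdh16 held 1 TATAAA, 82 bases before the start, which 8.32% of all promoters hold, and Akr1c21 held none of the 4 motifs. GGAATG, in 14.7% of all promoters, was in none of the 12 windows of the members (Apoa2 and Plac8 have 2 starts each), and TGANTCA, in 7.81%, was in that of Ms4a4b alone. A match describes letters and does not show a bound site.

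Among the genes that were higher in shYthdf3, Akr1c21, an aldo-keto reductase that acts on steroids (ENSMUSG00000021207, chr13:4574075-4586543, build mm10 for all positions), went from near 0 to a clear level. Its shYthdf3 libraries read 0.54 and 1.46 TPM at day 1, 8.58 and 6.08 at day 3, 25.15 and 21.26 at day 5, and 22.82 and 18.1 at day 7. Its shLuc libraries never passed 0.77 TPM and those of shYthdf2 never passed 0.9 TPM, so shYthdf3 stood above shLuc without overlap at all 4 days, as 8.87%, 15.6%, 20.8% and 14.2% of genes did at days 1, 3, 5 and 7. The mean difference over days was 3.05 ± 0.25 on the log2(TPM + 1) scale (estimate ± standard error over 8 libraries against 8). In the fit that gave it 5.26% of 21303 genes were called at an adjusted p under 0.05, 2.76% higher and 2.5% lower, and 2228 genes in place of 1121 when replicate number entered as a block; since this contrast chose the members, nothing is read from these shares.

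Grm2, an inhibitory metabotropic glutamate receptor (ENSMUSG00000023192, chr9:106644534-106656109), whose promoter is the CG-rich one shown above, peaked earlier. In shYthdf3 it was at 1.93 and 0 TPM at day 1, 24.63 and 26.3 at day 3, 28.88 and 14.4 at day 5, and 9.29 and 3.58 at day 7. The shLuc libraries lay between 0 and 3.26 TPM, with the highest at day 7 in replicate 2, and the arms overlapped only at day 1. Its mean difference was 2.65 ± 0.37, and by day it was 0.78, 4.10, 4.09 and 1.63. Rdh16, a retinol dehydrogenase (ENSMUSG00000069456, chr10:127801090-127815846), read 0.97 and 0.72 TPM at day 1, 7.11 and 10.63 at day 3, 16.04 and 16.32 at day 5 and 9.24 and 9.47 at day 7 in shYthdf3. Replicates of Rdh16 lay close together at days 1, 5 and 7. Its highest shLuc library was at 2.44 TPM (day 3 replicate 1), and shYthdf3 was above shLuc without overlap at each day, with a mean difference of 2.38 ± 0.28.

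Ms4a4b, a membrane protein known from T cells (ENSMUSG00000056290, chr19:11443558-11463549), was already uneven at day 1, with 1.69 and 9.99 TPM in shYthdf3. It then read 19.32 and 17.15 at day 3, 31.21 and 15.03 at day 5, and 24.66 and 12.97 at day 7, while shLuc ranged from 0 to 6.12 TPM, so the arms overlapped at day 1 alone. The mean difference was 2.38 ± 0.46. T cell markers overlapped between arms: the summed level of 8 markers ranged from 0.77 to 51.37 TPM in shLuc (median 16.53). In shYthdf3 it ranged from 0.98 to 54.42 TPM (median 23.32), while the medians of Ms4a4b were 1.945 and 16.09 TPM. Cd3e was at 0 in all libraries of either arm, Cd3d in those of shLuc alone and Cd8a in those of shYthdf3 alone. By limma 0 of the 5 markers tested were called. Hgd, homogentisate dioxygenase of the tyrosine breakdown pathway (ENSMUSG00000022821, chr16:37579742-37632026), read 1.13 and 1.34 TPM at day 1, 22.32 and 15.71 at day 3, 33.12 and 15.35 at day 5, and 12.52 and 3.73 at day 7. Its control was uneven too, from 0 to 9.25 TPM (day 5 replicate 2), yet no day overlapped, and the mean difference was 2.14 ± 0.45.

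Kng2, a kininogen from which kinin peptides are cut (ENSMUSG00000060459, chr16:22985852-23029101), reached the highest level of the 6. In shYthdf3 it read 2.02 and 0.57 TPM at day 1, 20.52 and 10.52 at day 3, 70.29 and 43.45 at day 5, and 43.42 and 46.37 at day 7. In shLuc it was at 0 in both libraries at day 1 and between 2.95 and 8.44 TPM later. The groups did not overlap at any day, and the mean difference was 2.21 ± 0.27.

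**Figure D2:**
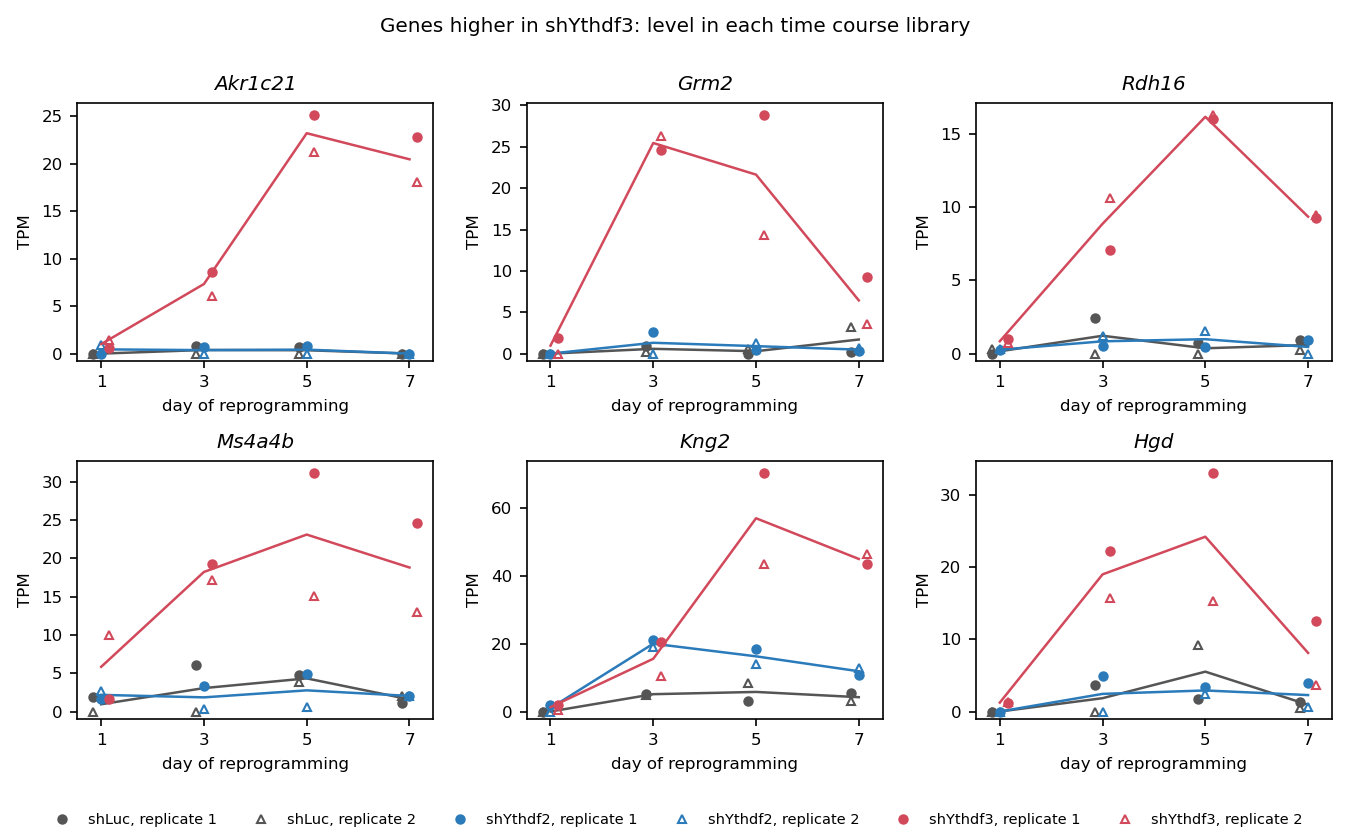
TPM (linear axis, 1 scale per gene) against day for the 6 genes higher in shYthdf3; symbols are single libraries of replicate 1 (filled circle) and replicate 2 (open triangle), and lines join the means of 2. All 6 stand above shLuc at days 3 and 5, with highest libraries of 25.15 TPM for Akr1c21, 28.88 for Grm2 and 70.29 for Kng2. The shYthdf2 libraries of Kng2 also lie above control at days 3, 5 and 7, and those of Ms4a4b at day 7 alone.

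Among the genes that were lower, Plac8, a small cysteine-rich protein (ENSMUSG00000029322, chr5:100551589-100572253), was the most abundant. Control libraries read 10.03 and 15.17 TPM at day 1, 10.41 and 14.08 at day 3, 111.77 and 47.08 at day 5, and 89.11 and 67 at day 7. In shYthdf3 they read 7.32 and 2.78, then 2.44 and 2.13, then 21.26 and 10.67, and 25.71 and 14.37 TPM. Every shYthdf3 library was below every shLuc library of its day, as for 22.1%, 14.4%, 12.2% and 12.4% of genes at the 4 days, and the mean difference was -1.85 ± 0.30. Both arms were higher at days 5 and 7 than at days 1 and 3, from a lower level in shYthdf3.

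Apoa2, an apolipoprotein of high-density lipoprotein (ENSMUSG00000005681, chr1:171221564-171226379), differed strongly between replicates in the control. The shLuc libraries numbered 1 read 3.85, 11.34, 10.16 and 3.57 TPM at days 1, 3, 5 and 7, and those numbered 2 read 20.83, 18.32, 24.65 and 27.37. In shYthdf3 replicate 1 was at 0, 4.22, 0 and 0 TPM and replicate 2 at 9.09, 9.29, 0 and 3.1. The number 2 library was the higher one at all 4 days in shLuc, and within either number shYthdf3 was lower at each day. The arms overlapped at day 1, and the mean difference was -2.34 ± 0.62, the widest error of the 10. Replicate number also went with mitochondrial share and genes listed, as given above, and the part of these in the level of Apoa2 was not tested.

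Ccdc106, a coiled-coil protein (ENSMUSG00000035228, chr7:5053842-5060785), was listed at 0 in 6 of the 8 shYthdf3 libraries and at 2.03 and 2 TPM in those of day 3. Its shLuc libraries read 3.17 and 0 TPM at day 1, 4.38 and 18.18 at day 3, 0 and 5.53 at day 5 and 5.98 and 14.45 at day 7. With 2 control libraries at 0, only days 3 and 7 were free of overlap, and the mean difference was -1.88 ± 0.42. Chrm4, an inhibitory muscarinic acetylcholine receptor (ENSMUSG00000040495, chr2:91922189-91929835), was at 0 in 4 shYthdf3 libraries and at most 2.7 TPM in the others. In shLuc it read 2.17 and 0, 3.19 and 22.91, 4.13 and 3.79, and 6.53 and 7.11 TPM at the 4 days, so days 3, 5 and 7 did not overlap. Its mean difference was -1.79 ± 0.44. The day 3 control mean of Chrm4 and of Ccdc106 rested on replicate 2. In bulk RNA, fewer cells that express a gene and less RNA per cell cannot be told apart.

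**Figure D3:**
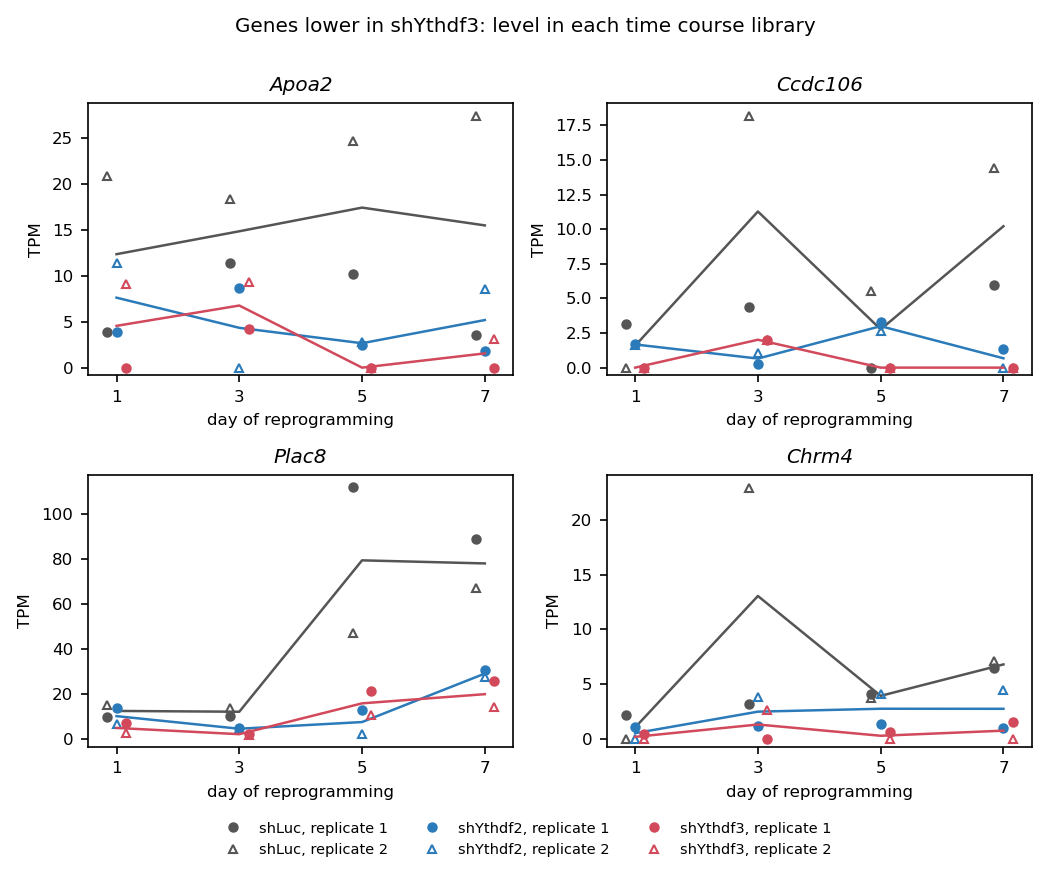
TPM (linear axis, 1 scale per gene) against day for the 4 genes lower in shYthdf3, drawn as in the plot of the higher genes. Plac8 rises to 47.08 to 111.77 TPM in shLuc by day 5 and reaches at most 25.71 TPM in shYthdf3, and shYthdf2 libraries lie near those of shYthdf3; the shLuc replicates of Apoa2 are far apart.

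The shYthdf2 arm was set beside these values using the same 8 shLuc libraries, so the comparisons share their controls and no test of overlap is given. In that fit 3.54% of genes were called for shYthdf2. Of the 6 genes higher in shYthdf3, 5 were near control in shYthdf2, with mean differences of 0.12 ± 0.25 for Akr1c21, 0.07 ± 0.37 for Grm2, 0.12 ± 0.28 for Rdh16, 0.05 ± 0.46 for Ms4a4b and 0.07 ± 0.45 for Hgd. Of these 5, Ms4a4b stood above shLuc without overlap at day 7 alone, as 12.1% of genes did. Kng2 was the exception to the near-control means, at 1.34 ± 0.27. Its shYthdf2 libraries read 2.03 and 0 TPM at day 1, 21.01 and 18.91 at day 3, 18.46 and 14.02 at day 5, and 10.89 and 12.79 at day 7, above shLuc without overlap from day 3 on, as 12.8%, 14.3% and 12.1% of genes were at days 3, 5 and 7. At day 3 it was as high as in shYthdf3, and at days 5 and 7 every shYthdf2 library was below every shYthdf3 library.

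The 4 lower genes were all below control in shYthdf2 as well, by -1.58 ± 0.30 for Plac8, -1.52 ± 0.62 for Apoa2, -1.10 ± 0.42 for Ccdc106 and -0.90 ± 0.44 for Chrm4. Plac8 read 12.85 and 2.48 TPM at day 5 and 30.86 and 27.5 TPM at day 7, below shLuc without overlap at days 3, 5 and 7, as 14.6%, 14% and 11.8% of genes were. Apoa2 read 3.86 and 11.36, 8.66 and 0, 2.49 and 2.82, and 1.8 and 8.55 TPM at the 4 days, and overlapped with shLuc at days 1 and 7. Ccdc106 was at most 3.33 TPM and Chrm4 at most 4.52 TPM in shYthdf2. The high shLuc values that helped choose these 4 genes enter the shYthdf2 differences too, so a lower value in shYthdf2 is favoured by the choice. Likewise the low shLuc values of the higher genes favour a higher difference in shYthdf2, that of Kng2 included.

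To see whether the differences recur in libraries that did not choose the genes, the 2 hairpins were compared with shLuc in ES cells, iPS cells and MEFs, which were not being reprogrammed, and in DMSO-treated reprogramming cells of day 1. Limma called none of the higher genes that could be tested there. Ms4a4b was listed at 0 in all 18 cell line libraries, and Akr1c21 at 0 in every ES and MEF library and at most at 0.67 TPM in iPS cells. Rdh16 was at most 0.4 TPM and Hgd at most 0.69 TPM in the 3 cell types, and these 4 genes did not pass the filter of 1 TPM in at least 2 libraries. Akr1c21, Grm2, Rdh16 and Hgd did not pass it in the DMSO and actinomycin D libraries. Kng2 was tested in all 4 settings, and its difference in shYthdf3 was 0.07 ± 0.33 in ES cells, -0.22 ± 0.33 in iPS cells, 0.43 ± 0.33 in MEFs and -0.62 ± 0.38 in DMSO, where all 4 shYthdf3 libraries were at 0 and the shLuc libraries at 0.49, 1.25, 0 and 0.67 TPM. The 95% intervals had upper ends from 0.18 to 1.15. At day 1 of the time course, the day of the DMSO cells, Kng2 was also low in shYthdf3, as given above.

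By limma, 0 of the 6 members tested were called for shYthdf3 in ES cells, where 1.64% of 17985 genes were called, 0 in iPS cells (2.89%), 0 in MEFs (0.628%) and 0 in DMSO (0.7% of 19290 genes, or 737 genes in place of 135 with replicate number as a block, which called 0 members too). For shYthdf2 it was 0 of 6 in each, beside 3.65%, 2.48%, 1.46% and 0.342% of genes. At an unadjusted p under 0.05 there was 1 of 6 members for shYthdf3 in ES cells (14.4% of all genes), MEFs (13.1%) and DMSO (9.89%) and 0 in iPS cells (15.4%). For shYthdf2 it was 1 of 6 in ES cells (17.3%) and 0 in iPS cells (15.5%), MEFs (11.8%) and DMSO (7.28%). Each time it was Chrm4, and 1 of 6 is close to these shares. The number of genes called moved with single libraries. For shYthdf3 it went from 295 to 131 in ES cells without shLuc replicate 1, and from 520 to between 123 and 155 in iPS cells without any 1 of the 4 libraries. In MEFs it went from 113 to 17 without shLuc replicate 2 and to 548 without shYthdf3 replicate 1. No member was called in any of these. Between the 2 hairpins directly, limma called 0 of 6 in each setting (0.879%, 1.94%, 0.979% and 1.69% of genes), with 1 at an unadjusted p under 0.05, Kng2 in DMSO, where 12.3% of genes were.

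The lower genes gave smaller differences in the same direction in part of these settings. In others the shYthdf3 median was the higher one, with overlap. In MEFs it was 4.345 against 3.955 TPM in shLuc for Plac8 and 0.79 against 0.71 for Ccdc106. In ES cells it was 1.325 against 0.46 TPM for Apoa2. Chrm4 in ES cells read 1.42 and 1.89 TPM in shLuc, 0.32 and 0.77 in shYthdf3 and 0.33 and 0.34 in shYthdf2, with differences of -0.79 ± 0.28 (limma, adjusted p = 0.201) and -0.99 ± 0.28 (adjusted p = 0.0783). In MEFs it read 1.23 and 1.34 TPM in shLuc and 0.75 and 0.18 in shYthdf3 (-0.67 ± 0.28, limma, adjusted p = 0.327), lower without overlap as 31.2% of 13761 genes were. In DMSO it read 0.84, 0.65, 1.18 and 1.39 TPM in shLuc and 0.47, 0, 0 and 0.46 in shYthdf3 (-0.72 ± 0.21, limma, adjusted p = 0.164). Within 4 h and within 8 h these libraries did not overlap, as for 14.7% and 18.8% of genes, yet only 2 of the 24 actinomycin D and DMSO libraries reached 1 TPM, both of them shLuc, so Chrm4 entered that fit through the group where it was high. In iPS cells Chrm4 was at 1.29 and 0.92 TPM in shLuc and at 0.85 and 1.23 in shYthdf3, which overlap.

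Ccdc106 in ES cells read 5.19 and 7.14 TPM in shLuc, 4.14 and 4.69 in shYthdf3 and 3.08 and 4.22 in shYthdf2. In iPS cells it read 6.35 and 5.36, 2.78 and 4.88, and 2.91 and 3 TPM. Both hairpins were below shLuc without overlap in both pluripotent cell types, a pattern that 19.2% of 14668 genes in ES cells and 31% of 15131 genes in iPS cells showed for shYthdf3, and 25.9% and 24.8% for shYthdf2. The differences, from -0.39 ± 0.42 to -0.79 ± 0.42, did not pass (limma, adjusted p = 0.751 for the first, shYthdf3 in ES cells, and 0.403 for the last, shYthdf2 in iPS cells). Plac8 in iPS cells was at 2.93 and 4.57 TPM in shLuc, 0.96 and 2.39 in shYthdf3 and 2.89 and 0.74 in shYthdf2 (-0.86 ± 0.57 and -0.85 ± 0.57, limma, adjusted p = 0.536 and 0.535). Apoa2 was steady in iPS cells at 12.98 to 15.91 TPM in all 6 libraries, with a difference of -0.07 ± 0.52 in shYthdf3. In DMSO Apoa2 differed by -0.46 ± 0.61 and Plac8 by -0.42 ± 0.31, and neither passed (limma, adjusted p = 0.885 and 0.753).

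**Figure D4:**
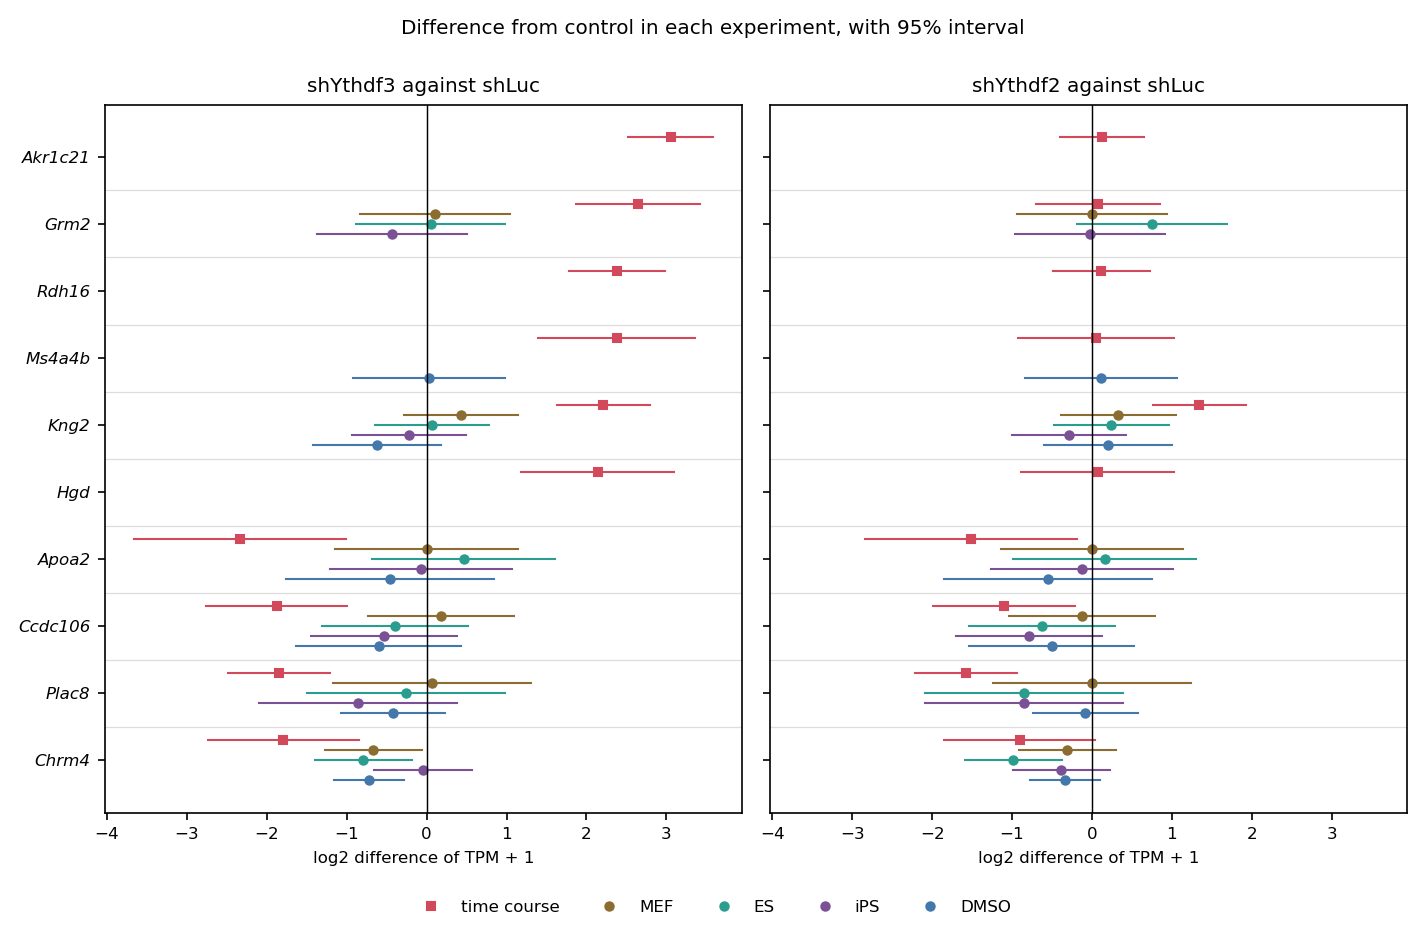
Difference from shLuc on the log2(TPM + 1) scale (points) with the 95% interval of the limma fit (bars), for shYthdf3 on the left and shYthdf2 on the right; squares are the time course, where shYthdf3 chose the genes, and circles MEFs, ES cells, iPS cells and DMSO. A missing circle is a gene under the filter there; the higher genes are far from 0 only in the time course squares, and Chrm4 in shYthdf3 has intervals below 0 in MEFs, ES cells and DMSO but not in iPS cells.

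The level of each gene in control cells gives the setting for these differences. In shLuc, the day 7 level minus the day 1 level was 2.34 ± 0.54 for Kng2, which went from 0 to 4.215 TPM on average, and 2.55 ± 0.60 for Plac8, which went from 12.6 to 78.06 TPM. For Ccdc106 and Chrm4 it was 2.35 ± 0.84 and 2.13 ± 0.89, with a day 1 replicate at 0 in both. In shYthdf3 the same difference was 3.45 ± 0.50 for Akr1c21, 2.49 ± 0.57 for Rdh16 and 4.40 ± 0.54 for Kng2. All of these are given without a test, because the libraries helped choose the genes.

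A contrast of the day 7 difference with the day 1 difference described whether shYthdf3 and shLuc moved apart over time. It was 3.45 ± 0.70 for Akr1c21, 2.06 ± 0.80 for Rdh16 and 2.06 ± 0.77 for Kng2, beside a median of 0.132 over all 21303 genes. In the time course Akr1c21 reached 1 TPM in shYthdf3 libraries alone, so it entered this fit through the group where it was high. Over all genes limma called 0, with 1442 at an unadjusted p under 0.05, and 306 without shYthdf3 day 1 replicate 2, the library with the lowest Ythdf3.

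Between cell types, Ccdc106 was higher in ES cells than in MEFs by 2.19 ± 0.42 in shLuc (limma, adjusted p = 0.000578, 6.165 against 0.71 TPM), 1 of 6 members where 62.9% of genes were called. Apoa2 was higher in iPS than in ES cells by 3.53 ± 0.52 (limma, adjusted p = 0.000917, 15.04 against 0.46 TPM), 1 of 6 where 20.3% were called. In MEFs Apoa2 was at 0 in all 6 libraries. By median TPM in shLuc alone, with the Tead2 experiment left aside, Apoa2 was ordered iPS cells (15.04), the time course (14.83), actinomycin D (10.11), DMSO (5.68), ES cells (0.46) and MEFs (0). The time course ranged from 3.57 to 27.37 TPM and overlapped with iPS cells, actinomycin D and DMSO, while ES cells reached at most 0.92 TPM. For Plac8 the shLuc order was the time course (31.125), actinomycin D (11.83), DMSO (8.785), MEFs (3.955), iPS cells (3.75) and ES cells (2.28). The first 3 of these overlap, as do MEFs with iPS cells and iPS cells with ES cells.

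**Figure D5:**
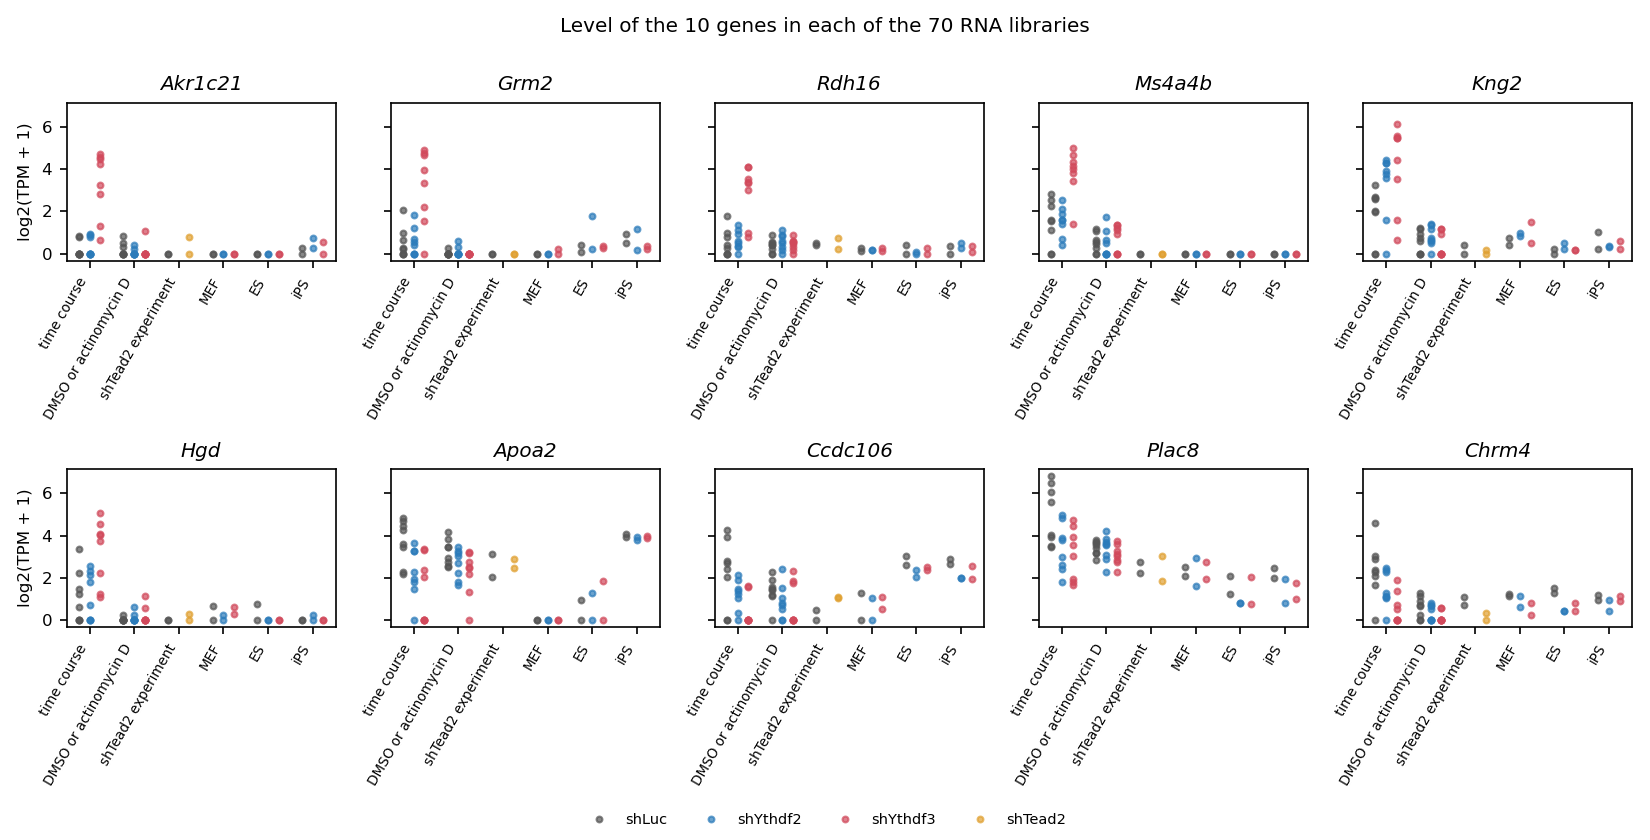
log2(TPM + 1) of each gene in every one of the 70 RNA libraries, by experiment on the horizontal axis and by hairpin in colour; each point is 1 library. The 6 higher genes leave the bottom of the axis mainly in the shYthdf3 libraries of the time course, Kng2 in shYthdf2 too, while Apoa2 is at 12.98 to 15.91 TPM in all iPS libraries and Ccdc106 at 2.78 to 7.14 TPM in all ES and iPS libraries.

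Actinomycin D shows how fast a transcript falls relative to all others once synthesis stops. Chrm4 in shLuc went from 1.015 TPM in DMSO to 0.19 TPM in actinomycin D (-0.77 ± 0.21), beside a median of -0.466 over all genes. With libraries scaled by median ratios its difference was -0.54, and the median of -0.466 does not apply to that scaling. Chrm4 was the 1 of 6 members called by limma, where 33.3% of 19290 genes were called. Since it passed the filter only through the shLuc DMSO 8 h libraries, its fall was favoured by the filter and nothing is read from the call. Apoa2 and Plac8 differed by 0.36 ± 0.61 and 0.34 ± 0.31 and did not pass (limma, adjusted p = 0.7 and 0.431). The change on actinomycin D in shYthdf3 minus that in shLuc gave 0 of 6 members by limma (0.00518% of genes called), with 0 at an unadjusted p under 0.05. In Apoa2, the shYthdf3 libraries with actinomycin D read 5.67 and 0 TPM at 4 h and 3.47 and 4.56 at 8 h, against 10.09 and 5.72, and 10.13 and 13.43 in shLuc, lower without overlap at either time, as 15.3% of genes were at 4 h and 13.1% at 8 h. The hairpin against Tead2 at day 1 changed 0 of the 3 members tested by limma (0.0879% of 14783 genes called), with 0 at an unadjusted p under 0.05. A TEAD2 peak lay within 2 kb of the upstream start of Apoa2, 1053 bp into the gene. Another lay 5008 bp downstream of the start of Ccdc106, past the end of that gene, and U2af2 lies 100 bp from Ccdc106. Of 27025 genes, 14.7% had a TEAD2 peak within 2 kb and 20% within 10 kb, so nothing is read from these peaks. Which gene either peak belongs to was not tested.

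Relatives of the members were looked up in the time course comparison of shYthdf3 with shLuc, where 5.26% of all genes were called. In the aldo-keto reductase list 1 of 11 genes tested rose and 2 fell: Akr1c18, a steroid dehydrogenase that inactivates progesterone, rose by 1.25 ± 0.22 to 78.83 from 46.58 TPM (limma, adjusted p = 0.00298), and Akr1b3 and Akr1b10 fell by 0.60 ± 0.10 and 0.61 ± 0.14 (adjusted p = 0.00308 and 0.0167). Akr1c18 rose in shYthdf2 too, by 0.88 ± 0.22 (limma, adjusted p = 0.0354). In the kinin list Kng1, the other kininogen gene, 29119 bp from Kng2, was the 1 of 5 that rose, by 1.22 ± 0.31 to 2.585 from 0.4338 TPM (limma, adjusted p = 0.03). Kng1 and Kng2 are close copies, as are genes of the Akr1c and Rdh16 clusters, so how the authors' quantification divided shared reads between copies can move their values. In the apolipoprotein list Apoe, which carries lipids between cells, was the 1 of 8 that changed, a fall of 0.71 ± 0.15 (limma, adjusted p = 0.0119).

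Limma called 0 of 20 tested genes of retinol and retinoic acid metabolism, 0 of 2 of tyrosine breakdown, 0 of 8 of the MS4A family, 0 of 2 other metabotropic glutamate receptors, 0 of 3 muscarinic and acetylcholine genes and 0 of 1 of the PLAC8 family in the same comparison. The list medians were -0.137, 0.248, -0.025, -0.713, 0.485 and -1.084, beside 0.016 over all 21303 genes. Fah, the last enzyme of tyrosine breakdown, rose with shYthdf3 in ES cells (0.72 ± 0.15, limma, adjusted p = 0.036) and iPS cells (0.90 ± 0.15, adjusted p = 0.00866), where Hgd itself was at or near 0. Of 22 liver markers 8 were tested, and 0 were called by limma. The summed level of the 22 had a median of 21.1 TPM in shLuc (4.8 to 40.21) and 25.58 TPM in shYthdf3 (3.39 to 52.89). Ttr, Fgb, Serpina1c, Vtn and Ambp were at 0 in every library of both. In all, 10 of the 22 were at 0 in every shLuc library and 6 in every shYthdf3 library. Afp, Fgg, Fga, Serpina1a and Serpina1b were so in shLuc alone and Foxa3 in shYthdf3 alone. Of 7 kidney tubule markers 2 were tested and 1 rose, Slc12a1, from 0.1462 to 1.125 TPM (0.81 ± 0.22, limma, adjusted p = 0.0418), a low level in both arms. The summed level of the 7 overlapped, from 0 to 12.66 TPM in shLuc (median 2.15) and 0.47 to 6.68 TPM in shYthdf3 (median 4.58). All 9 neuronal markers were tested, and 1 rose and 2 fell: Stmn2, a regulator of microtubules, rose by 1.13 ± 0.16, from 133.1 to 238.2 TPM (limma, adjusted p = 0.00084), and Gap43 and Syt1 fell by 1.01 ± 0.16 and 0.72 ± 0.15 (adjusted p = 0.00162 and 0.0126). Stmn2 rose in shYthdf2 as well, by 1.26 ± 0.16 (limma, adjusted p = 0.00054). The part of other cell types in the levels of the 10 genes was not tested.

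Protein-coding neighbours within 100 kb were looked up to see whether the differences extended along the chromosome. Of 66 such genes 52 were tested, and 2 were higher and 2 lower, beside the 5.26% of all genes called, with a median of 0.105. The higher ones were Kng1, next to Kng2, and Usp21, 55570 bp from Apoa2 (0.55 ± 0.15). Among the lower ones was Adamts4, 23750 bp from Apoa2 (-1.13 ± 0.24). No neighbour of the other 8 members was called.

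By the correlation of log2(TPM + 1) over the 42 time course and cell line libraries, which include those that chose the members and share cell types and days, Akr1c21 and Rdh16 were each other's closest match (r = 0.936) among 12762 genes. Grm2 was closest to Tmem232 (0.88), Ms4a4b to Trpv3 (0.9), Kng2 to Mknk2 (0.925) and Hgd to Kynu, an enzyme of tryptophan breakdown (0.908). For the lower genes r was smaller: Apoa2 with Hmga1 (0.73), Ccdc106 with Gfra4 (0.693), Plac8 with Ramp2 (0.809) and Chrm4 with Sstr2 (0.73). By Spearman rank correlation the same matches were not so ordered. They ranged from 0.559 (Grm2) to 0.868 (Ms4a4b) for the higher genes and from 0.522 (Chrm4) to 0.816 (Plac8) for the lower ones. Over the 16 shLuc and shYthdf2 libraries of the time course alone, which leave out shYthdf3, Akr1c21 and Rdh16 correlated weakly (r = 0.273). The closest pairs of members there were Akr1c21 with Ms4a4b (0.686), Ccdc106 with Chrm4 (0.619) and Ms4a4b with Hgd (0.615), across libraries that share days and replicate numbers and at levels near 0 for Akr1c21.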

How the data were processed

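RNA levels are TPM values, which the authors deposited in 2 tables of 50692 genes (85 names occur more than once), and peaks are deposited lists of start and end positions on mm10 with no score used. The submitters' processing notes name RSEM, Bowtie2, SAMtools, MACS2 and deepTools, with versions and settings not given in the sources used here. Read depth is unknown, and 24 spike-in columns that match no label were not used. Genes with at least 1 TPM in at least 2 libraries were fitted on log2(TPM + 1) with limma 3.58.1 in R 4.3.3 (trended variances, Benjamini-Hochberg adjustment over all genes, two-sided, threshold 0.05), separately for the time course (24 libraries), the cell lines (18), the Tead2 hairpin (4) and the actinomycin D experiment (24). A fold on this scale understates the change of low genes. Libraries with the same replicate number deviated together in the time course (r from 0.276 to 0.497 over 66 group pairs) and the actinomycin D experiment (0.122 to 0.388). The reported estimates, errors and adjusted p-values come from fits without replicate number, and fits with it as a block were run as an alternative setting. Peaks were matched to RefSeq gene starts within 2 kb. The members and gene lists were chosen with earlier results of these data known. All 10 members are named, with list genes that passed, up to 4 per list by size, and the most correlated gene of each member among those at 5 TPM or more in at least 2 libraries. The fits' output was plotted with Python 3.11.15 and matplotlib 3.10.9. Comparisons within an arm over days, of days 3, 5 and 7 with day 1, of neighbours and of promoter motifs were added after seeing the data. The values of 1 neighbouring gene are not reported here.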

Additional observations from a re-analysis of the deposited data

Results flagged for a closer look

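Plac8 in shYthdf2 moved in opposite directions in 1 setting and in the pluripotent cells, the 1 such case among the members when the time course and actinomycin D are left aside. After 4 h of DMSO both shYthdf2 libraries were higher, at 11.32 and 11.79 TPM against 10.6 and 7.93 in shLuc, a pattern that 12.6% of genes showed. In ES cells both were lower, at 0.73 and 0.77 TPM against 1.37 and 3.19, and in iPS cells too, at 2.89 and 0.74 against 2.93 and 4.57. Of all genes, 25.9% in ES cells and 24.8% in iPS cells were lower in this way. The difference between settings was not tested. Against the time course, where the choice of members fixed the direction, 3 higher genes were lower without overlap in shYthdf3 in 1 setting, at levels near 0: Akr1c21 after 4 h of DMSO (0 and 0 against 0.42 and 0.78 TPM), Kng2 after 4 h of DMSO (0 and 0 against 0.49 and 1.25 TPM) and Grm2 in iPS cells (0.27 and 0.15 against 0.4 and 0.9 TPM). Of genes reaching 1 TPM in at least 2 libraries, 14.7% were lower without overlap in shYthdf3 after 4 h of DMSO and 31% in iPS cells. Rdh16 kept the time course direction after 8 h of DMSO, higher in shYthdf3 without overlap, as 10.6% of genes were. The differences of the 3 genes from the time course were not tested either.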

How the results depend on the processing

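With replicate number as a block, the time course comparisons called 2228 genes for shYthdf3 and 1609 for shYthdf2 in place of 1121 and 755, and the block changed no call of a member in a comparison that was tested above. It moved the genes called from 1454 to 2350 for shLuc day 7 against day 1, from 1114 to 1977 and from 1113 to 1988 for the same in shYthdf3 and shYthdf2, and from 0 to 34 for the growth of the shYthdf3 difference from day 1 to day 7 (26 with no filter, 3 with median-ratio scaling). For days 3, 5 and 7 against day 1 the count was 3, and 7, 16, 10 and 52 with a pseudocount of 0.1, no filter, median-ratio scaling and the block. In DMSO 135, 66 and 326 genes became 737, 330 and 1315 under the block and 53, 30 and 160 under median-ratio scaling. In cells where the number pairs nothing, the block gave 99 for 158 between hairpins in ES cells and 72 for 113 in MEFs (46 with scaling, 190 with a pseudocount of 0.1). That pseudocount gave 102 for 158, 310 for 520 and 213 for 349 in ES and iPS cells. The actinomycin D difference between hairpins went from 1 gene to 2, 19, 0 and 10, and shTead2 from 13 to 0 with no filter. The pseudocount of 0.1 took the shYthdf3 differences to 4.04 for Rdh16 and -3.52 for Ccdc106. Median-ratio scaling left 0 members for actinomycin D in place of 1, and a 10 kb window gave 8 members with a peak in place of 5. Leaving out 1 library at a time, with a lone library assumed to vary like the other groups, gave 0 to 306 genes for the growth of the shYthdf3 difference and 0 to 408 for days 3, 5 and 7 against day 1, both highest without shYthdf3 day 1 replicate 2. It gave 699 to 901, 525 to 1240 and 597 to 732 genes for day 7 against day 1 in shLuc, shYthdf3 and shYthdf2, 380 to 775 for shYthdf2 in the time course, and 0 to 1 members for actinomycin D. For shYthdf3 it gave 131 to 224 genes in ES cells, 123 to 155 in iPS cells, 17 to 548 in MEFs and 66 to 105 in DMSO. For shYthdf2 it gave 207 to 366, 104 to 174, 34 to 177 and 36 to 72, and for shTead2 3 to 300, with 0 members called in each of these. No member's called value changed sign in any setting run; for the values that moved, the cause was not tested.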
